A study of Mus musculus with 4 samples.

Results

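The 47 genes described here are induced by interferons, and were chosen by gene symbol as type I interferon-stimulated and guanylate-binding genes. All 47 symbols were found among the 54532 genes present in both deposited count tables. Of these genes 13811 were protein-coding, reached a sum of 10 counts across libraries and were tested, 46 of the 47 among them. The remaining one, Mx2, is annotated as a polymorphic pseudogene in the files and is described by its levels only. The study asked how the green tea polyphenol epigallocatechin gallate (EGCG) alters the transcriptome of microglia, the resident macrophages of the brain. Primary microglia of the outbred CD1 strain received 1 µM EGCG or its solvent dimethyl sulfoxide (vehicle) for 24 h, and each treatment has 2 libraries, replicates 1 and 2. In all 4 libraries the cells came from the cortex of 1- to 3-day-old male pups, were expanded in mixed glial culture with the growth factor GM-CSF, were freed of astrocytes with trypsin, and were kept in serum-free medium containing the cytokines IL-34, TGFβ and GM-CSF. The labels name no interferon or other stimulus beside the treatment. The labels call the replicates biological without saying whether they came from separate litters or cultures, so the p-values below measure the spread between these libraries.

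Interferons are secreted antiviral proteins that act through cell surface receptors and JAK kinases. Type I interferon signals activate a complex containing STAT2 and IRF9, which binds the interferon-stimulated response element (ISRE) in the promoters of its target genes. Genes induced by interferon gamma often carry the gamma-activated sequence (GAS). The induced genes encode sensors of foreign nucleic acid, enzymes that block viral RNA and protein synthesis, membrane proteins that restrict viral entry or release, and guanylate-binding GTPases that act on intracellular pathogens. In the brain, microglia can enter an interferon-responsive state marked by many of these genes.

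RefSeq promoter sequences, from 250 bases before to 50 bases after each start on the GRCm38.p6 build, were matched by symbol for 37 of the 47 genes. The ISRE core GAAANNGAAA was searched on both strands and was present in 22 of these 37 promoters (59.5%), against 3.99% of the promoters of 27025 genes. The GAS core TTCNNNGAA, which reads alike on both strands, was present in 11 of the 37 (29.7%), against 9.55% of all, and in 2 of the 37, Bst2 and Ifitm3, the motifs overlapped. Among the 37, all 4 guanylate-binding protein genes and 3 of the IFIT genes held the ISRE core, and Isg15 held 3 copies. The stretches below cover the genes on which the later results turn. Each shows the ISRE core nearest to the start among those at least 10 bases upstream of it, so other counted cores may lie outside the stretch. Stretches are 45 bases long and written 5′ to 3′ on the gene's own strand. Each complete ISRE core is in capitals (in reverse orientation it reads TTTCNNTTTC). The Gbp5 stretch lies inside the span that the files give for the gene, since the RefSeq start lies downstream of the start in the files.
Gbp5, chr3:142496744-142496788, plus strand: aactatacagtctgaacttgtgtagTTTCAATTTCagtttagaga
Gbp2, chr3:142620579-142620623, plus strand: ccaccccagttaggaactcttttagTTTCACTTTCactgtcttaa
Gbp3, chr3:142559980-142560024, plus strand: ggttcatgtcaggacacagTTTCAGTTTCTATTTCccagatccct
Gbp7, chr3:142530258-142530302, plus strand: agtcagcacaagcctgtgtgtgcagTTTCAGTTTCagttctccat
Rsad2, chr12:26456553-26456597, minus strand: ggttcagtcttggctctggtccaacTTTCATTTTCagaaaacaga
Isg15, chr4:156200865-156200909, minus strand: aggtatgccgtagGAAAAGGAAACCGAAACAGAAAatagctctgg
Oas3, chr5:120777715-120777759, minus strand: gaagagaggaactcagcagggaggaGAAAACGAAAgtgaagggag
Ifit1, chr19:34640779-34640823, plus strand: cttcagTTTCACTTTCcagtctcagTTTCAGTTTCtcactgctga
Ifit3, chr19:34583382-34583426, plus strand: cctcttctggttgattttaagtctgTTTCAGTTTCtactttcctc
Ifit3b, chr19:34607778-34607822, plus strand: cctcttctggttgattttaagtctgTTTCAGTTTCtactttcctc
Ifitm2, chr7:140955988-140956032, minus strand: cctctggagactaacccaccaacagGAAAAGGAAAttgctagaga
The stretches of Ifit3 and Ifit3b were identical, and these genes are also near-identical in their transcripts, with 97.8% identity over 1700 bases. The Cmpk2 promoter held neither motif, and Usp18 and Mx1 are described by their values only. A match describes letters only and does not show that a factor binds there.

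Many of the 47 genes lie in clusters of related genes on GRCm38. The 4 IFIT genes span chr19:34550694-34650009, the 4 guanylate-binding protein genes chr3:142493978-142638008, the oligoadenylate synthetase genes Oas1a, Oas2 and Oas3 chr5:120730333-120907521, and the 3 Schlafen genes chr11:82951349-83070678. Ifitm2 and Ifitm3 lie in chr7:140954837-141010770, and Mx1 and Mx2 in chr16:97447035-97560900. Of the 47 genes, 21 share a stretch of at least 200 bases at 90% identity or more with another gene, so reads could have been divided between copies. Besides Ifit3 and Ifit3b these include Oas1a with Oas1g (97.6% over 1861 bases), Ifi204 with Ifi211 (96.9% over 1363 bases) and Mx1 with Mx2 (94.8% over 920 bases), and the values of these genes are uncertain to that extent.

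The 4 libraries held between 33805071 and 54970300 counts, the EGCG library of replicate 2 being the deepest. The libraries of one replicate resembled each other far more than those of one treatment, with a chi-square statistic per gene of 11.9 and 9.84 between vehicle and EGCG within replicates 1 and 2 and of 254 to 278 between replicates. All 10 microglial marker genes were detected in every library, among them Cx3cr1 at 267 to 637 and Csf1r at 1195 to 2403 CPM (counts-per-million values, scaled here with edgeR's TMM factors). Stromal collagen stood apart in one library. Col1a1 read 121 CPM in vehicle and 0.125 in EGCG of replicate 1, and 36.7 and 37.0 CPM in replicate 2, and the summed CPM of the 7 stromal markers were 674, 259, 329 and 339 in the same order. Within replicate 1 the median log2 difference of the 7 markers was -7.73, but 2 of them read higher in EGCG.

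Every one of the 47 genes had at least 149 counts in every library. The 47 together made up 5795 CPM in vehicle and 6278 CPM in EGCG of replicate 1, and 4757 and 4795 CPM in replicate 2. In bulk RNA, a smaller share of expressing cells and less RNA per cell cannot be told apart.

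Between genes, levels are compared per length, as CPM per kilobase of the gene length given in the files (RPKM). The mean vehicle level ran from 2.11 RPKM for Oasl1 to 305 RPKM for Bst2, with a median of 20.6 RPKM. Bst2, which encodes tetherin, a protein that holds budding virus on the cell surface, read 368 and 403 RPKM in vehicle and EGCG of replicate 1 and 242 and 252 RPKM in replicate 2. Ifitm3, a membrane protein that restricts viral entry, was the next highest at 270 and 177 RPKM in vehicle, followed by the Schlafen gene Slfn2 at 196 and 206 RPKM. The vehicle levels of Ifitm3 and Slfn2 changed order between replicates, so these neighbours did not differ beyond their spread. Those of Bst2 and Ifitm3 overlapped across replicates, although Bst2 was the higher within each. Ifi27l2a, an interferon-induced membrane protein gene, read 167 and 130 RPKM in vehicle. Ifitm2 read 51.4 and 223 RPKM in vehicle, the widest gap between replicates among the 5 highest genes. At the low end, Oasl1, an inhibitor of Irf7 translation, read 2.15 and 2.07 RPKM, the guanylate-binding GTPase gene Gbp5 1.12 and 3.42 RPKM, and the RNA exonuclease gene Isg20 3.01 and 2.38 RPKM in vehicle. The vehicle range of Gbp5 took in those of Oasl1 and Isg20.

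**Figure D1:**
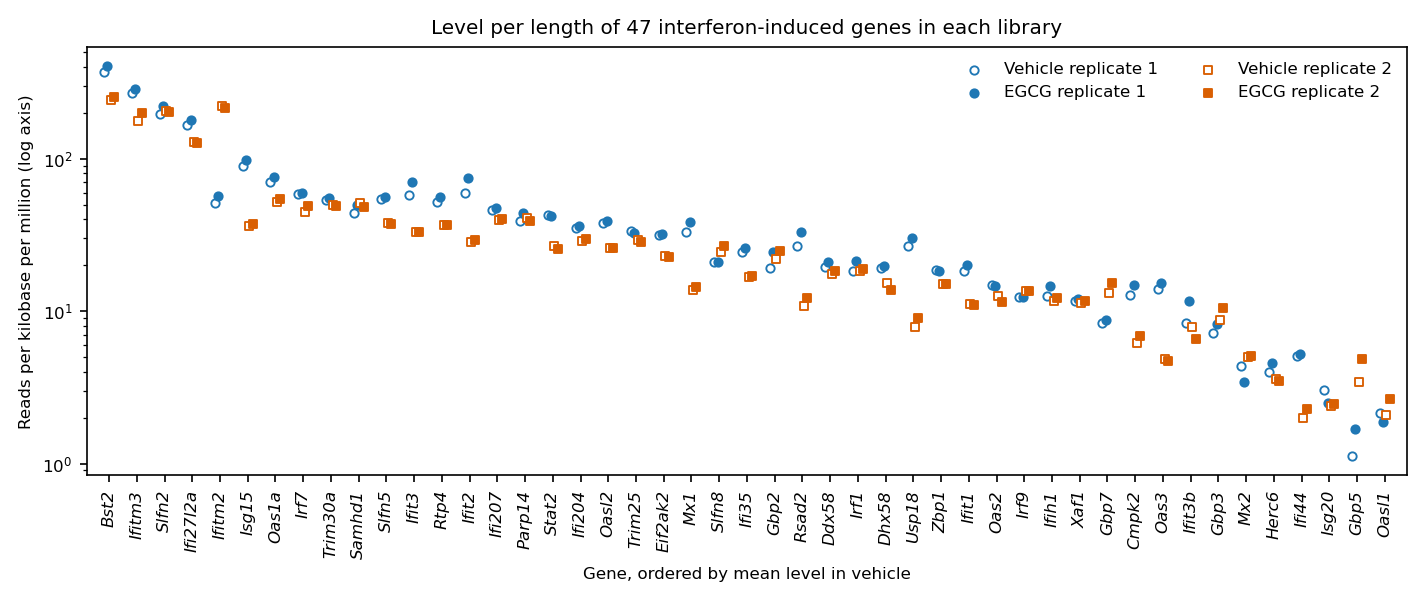
Level per length (RPKM, log axis) of the 47 genes in the 4 libraries, ordered by the mean in vehicle; open symbols are vehicle, filled symbols EGCG, circles replicate 1 and squares replicate 2. Bst2 is highest at a mean of 305 and Oasl1 lowest at 2.11, and for most genes the libraries of a replicate lie together.

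The first comparison asked whether EGCG altered the interferon-induced genes. In the test over all 13811 genes with treatment as the only term (edgeR's quasi-likelihood test), 0 of 46 passed an unadjusted p under 0.05 and 0 passed an adjusted p under 0.1, against 0.116% and 0% of all genes tested. DESeq2 with the same design also called 0 of 46 at either threshold, against 24 of all genes (0.174%) and 1 (0.00724%). The lowest p among the 46 was 0.121, for Gbp2, and all adjusted p-values were 1.00. The log2 fold change was positive for 39 and negative for 7 of the 46, with a median of 0.07 against 0.01 over all genes, of which 54.2% were positive. With upper-quartile or total-count scaling in place of TMM, 35 and 32 of the 46 were positive. The share of all genes that were positive was not counted under these scalings. The counts of 35 and 32 are therefore not compared with all genes. With TMM, the log2 fold change of the 46 ran from -0.12 for Isg20 to 0.52 for Gbp5. The standard error of this fold change had a median of 0.27 on the log2 scale, and 5 of the 46 fold changes exceeded 0.2 in size. How many of all genes did so was not counted.

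The replicates have count tables of their own, deposited separately, and the vehicle and the EGCG library of a replicate deviated together, so the comparison was also made within each replicate. Within replicate 1, EGCG exceeded vehicle in 40 of 46 genes (87.0%) with a median log2 difference of 0.11, against 58.5% and 0.03 over all genes. Within replicate 2 it did so in 28 of 46 (60.9%) with a median of 0.03, against 50.6% and 0.0018, nearer to the share of all genes. EGCG was above vehicle in both replicates for 26 genes (56.5%) against 29.9% of all genes, below vehicle in both for 4 (8.70%) against 20.6%, and of opposite sign for 16. With the replicate number added to the edgeR model as a block, 6 of the 46 (13.0%) were higher in EGCG at an unadjusted p under 0.05, against 2.12% of all genes, and 0 were lower, against 1.09%. None of the 6 passed an adjusted p under 0.1, where the lowest adjusted p of the 46 was 0.995 and a single gene of all 13811 (0.00724%) passed. DESeq2 with the block called 3 of the 6, Gbp5, Rsad2 and Gbp2, all higher (6.52%), against 1.11% of all genes called in either direction and 0.666% higher and 0.442% lower. It called none of the 46 at an adjusted p under 0.1, against 0.0507% of all genes. The rises named below were therefore seen only at an unadjusted threshold and only with the block.

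**Figure D2:**
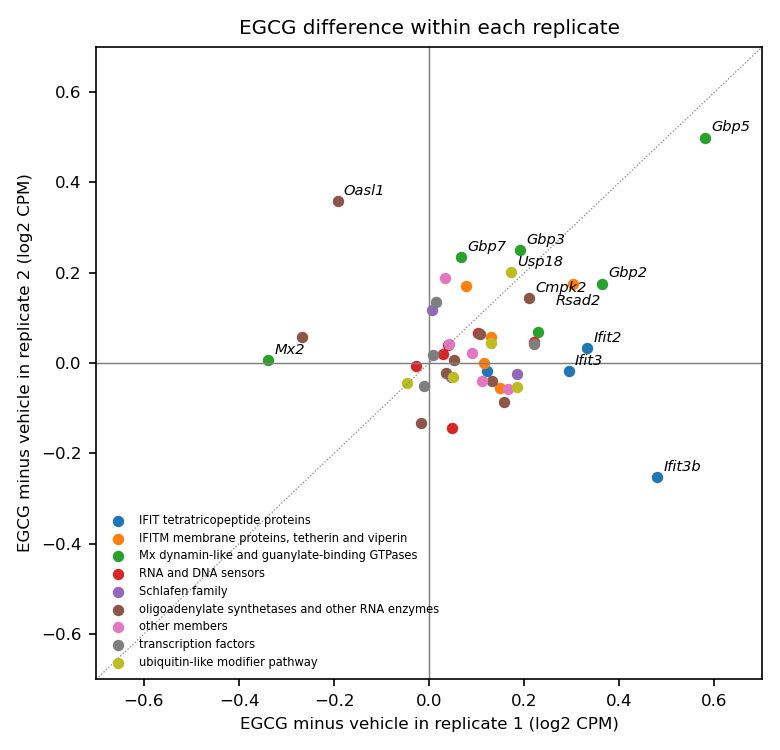
EGCG minus vehicle in log2 CPM within replicate 1 (horizontal axis) and replicate 2 (vertical axis) for the 47 genes, coloured by role, with equality as the dotted line. Gbp5 lies farthest out in both replicates at 0.58 and 0.50, 26 of the 46 tested genes lie above 0 in both, and the vertical spread about 0 shows a median of 0.03 in replicate 2.

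The guanylate-binding proteins are large GTPases that assemble on intracellular vacuoles and pathogens, and all 4 of their genes read higher in EGCG in both replicates. Gbp5, which also promotes inflammasome assembly, read 7.44 CPM in vehicle and 11.1 CPM in EGCG of replicate 1, and 22.7 and 32.1 CPM in replicate 2. EGCG exceeded vehicle by 49.5% and 41.3% within the replicates, although the EGCG level of replicate 1 was below the vehicle level of replicate 2. The log2 fold change was 0.54 ± 0.08 (SE) with the block (unadjusted p = 0.0010) and 0.52 ± 0.79 without it (unadjusted p = 0.543).

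Gbp2 read 48.0 and 61.8 CPM in vehicle and EGCG of replicate 1 and 55.0 and 62.1 CPM in replicate 2. Both EGCG libraries lay above both vehicle libraries, with means of 61.96 ± 0.241 against 51.5 ± 4.93 CPM (SD, n = 2). The block fit gave a log2 fold change of 0.27 ± 0.07 (unadjusted p = 0.0121). Gbp2 and the transcription factor gene Irf1 were the only 2 of the 46 (4.35%) whose EGCG libraries lay wholly above the vehicle libraries, against 6.39% of all genes, and 0 lay wholly below, against 5.51%.

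Gbp3 read 23.5 and 26.8 CPM in vehicle and EGCG of replicate 1 and 28.7 and 34.1 CPM in replicate 2, a log2 fold change of 0.22 ± 0.06 with the block (unadjusted p = 0.0148). DESeq2 with the block gave unadjusted p = 0.169 for it. Gbp7 read 46.8 and 49.0 CPM in replicate 1 and 73.3 and 86.2 CPM in replicate 2, and did not pass (unadjusted p = 0.0717 with the block). In both genes the difference between replicates was at least as wide as that between treatments.

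Rsad2 encodes viperin, an enzyme that makes a chain-terminating nucleotide against viral RNA synthesis, and its neighbour Cmpk2 encodes a mitochondrial nucleotide kinase. Rsad2 read 116 CPM in vehicle and 143 CPM in EGCG of replicate 1 and 46.6 and 52.6 CPM in replicate 2. EGCG was higher by 23.3% and 12.8% within the replicates, while both libraries of replicate 1 lay far above both of replicate 2. The log2 fold change was 0.24 ± 0.06 with the block (unadjusted p = 0.0099). Cmpk2 read 53.4 and 61.8 CPM in replicate 1 and 25.7 and 28.4 CPM in replicate 2, a log2 fold change of 0.18 ± 0.06 with the block (unadjusted p = 0.0272). DESeq2 with the block gave unadjusted p = 0.199 for Cmpk2.

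Usp18 encodes the protease that removes ISG15 from its targets and dampens signalling from the type I interferon receptor. It read 74.2 CPM in vehicle and 83.7 CPM in EGCG of replicate 1 and 21.9 and 25.2 CPM in replicate 2, so that each treatment spanned the gap between replicates. The log2 fold change was 0.19 ± 0.06 with the block (unadjusted p = 0.0239), and DESeq2 with the block gave unadjusted p = 0.148. The other genes of the ISG15 pathway did not pass. Isg15 itself, the ubiquitin-like modifier, read 67.7 and 74.1 CPM in replicate 1 and 27.3 and 28.2 CPM in replicate 2. Trim25, a ubiquitin ligase of the RIG-I pathway, was 3.17% and 3.06% lower in EGCG within the replicates, and the ligase Herc6 was of opposite sign in them.

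**Figure D3:**
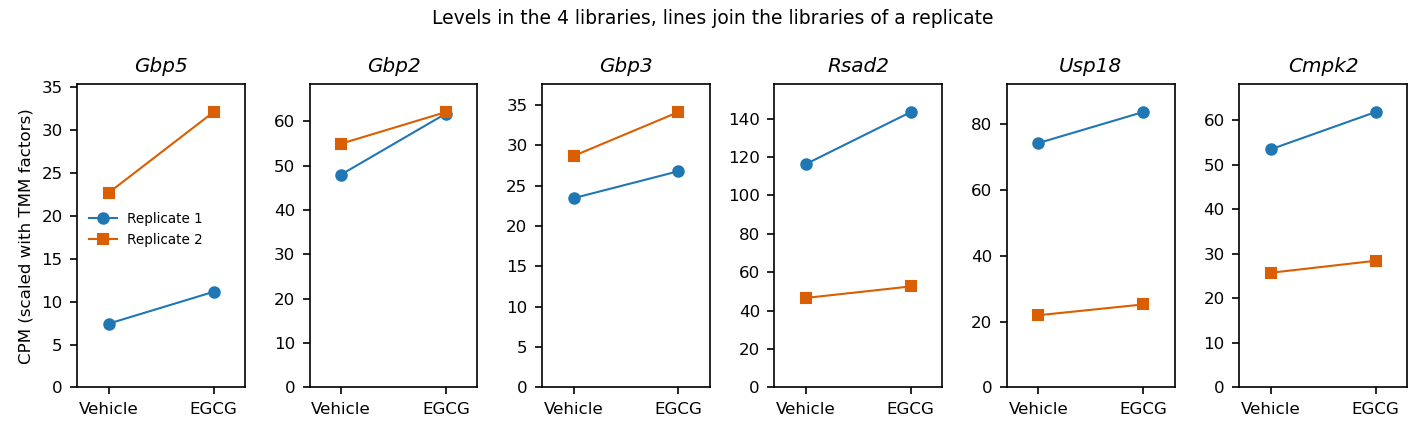
CPM of the 6 genes with an unadjusted p under 0.05 in the block fit, in vehicle and EGCG, each on an axis starting at 0; lines join the libraries of a replicate, with circles for replicate 1 and squares for replicate 2. Every line rises from vehicle to EGCG, and for every gene but Gbp2 the replicates differ by more than the treatments; Gbp2 reads 61.8 and 62.1 in EGCG.

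The IFIT proteins bind foreign RNA and block its translation, and none of their 4 genes passed in either fit. Ifit2 had the largest fold change of the 4 and read 233 and 293 CPM in vehicle and EGCG of replicate 1 but 112 and 115 CPM in replicate 2, 25.9% and 2.32% higher (unadjusted p = 0.0693 with the block). The difference thus lay almost wholly in replicate 1. Ifit3 was 22.6% higher in replicate 1 and 1.20% lower in replicate 2, and its near-copy Ifit3b was 39.5% higher and 16.03% lower. Ifit1 was 8.81% higher and 1.16% lower. In replicate 1, where all 4 IFIT genes read higher in EGCG, the stromal gene Col1a1 also differed between the libraries (121 against 0.125 CPM). Of the 7 stromal markers, 2 read higher in EGCG there. The part of the stromal genes in the result was not tested.

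Of the membrane proteins, Bst2 was 9.37% and 4.13% higher in EGCG within the replicates and Ifitm3 5.52% and 12.6% higher, neither past the threshold (unadjusted p = 0.118 and 0.0599 with the block). Ifitm2 read 33.7 and 37.3 CPM in replicate 1 and 146 and 141 CPM in replicate 2, with a log2 fold change of 0.04 ± 0.07 in the block fit. Mx1, a dynamin-like GTPase that traps viral nucleocapsids, read 125 and 146 CPM in replicate 1 and 52.0 and 54.6 CPM in replicate 2 (unadjusted p = 0.0614 with the block). Its copy Mx2, outside the test, read 15.8 and 12.5 CPM in replicate 1 and 18.2 and 18.3 CPM in replicate 2.

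The nucleic acid sensors moved little. Across the 6 of them the median log2 fold change was 0.03, and none passed in either fit. The RNA helicase sensors Ifih1 (MDA5) and Ddx58 (RIG-I) had unadjusted p = 0.0858 and 0.139 with the block, with Ifih1 16.6% and 3.33% higher in EGCG and Ddx58 7.42% and 4.74% higher. The third helicase of this family, Dhx58 (LGP2), was 3.34% higher in replicate 1 and 9.47% lower in replicate 2. Ifi204 and Ifi207 of the DNA-sensing family differed by at most 2.82% in either replicate, as did Zbp1, a sensor of left-handed nucleic acid, which was 1.94% and 0.423% lower.

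The oligoadenylate synthetases make the second messenger that activates RNase L, and the list with them holds further enzymes acting on RNA or nucleotides. Of these 9 genes Cmpk2 alone passed, in the block fit. Oas1a read 133 and 144 CPM in replicate 1 and 97.7 and 102 CPM in replicate 2, 7.65% and 4.62% higher in EGCG. Oas2 was 1.20% and 8.85% lower. Oas3 was 9.66% higher and 2.68% lower, and Isg20, the gene with the lowest fold change, was 16.9% lower and 4.13% higher at 149 to 254 counts per library. Eif2ak2, which encodes the RNA-activated kinase PKR, differed by at most 2.44%, and the nucleotide hydrolase gene Samhd1 was 11.5% higher and 5.74% lower.

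None of the 4 transcription factor genes that carry the response passed in either fit. Irf9 differed by 0.621% and 1.25% between treatments within the replicates and Stat2 by -0.803% and -3.47%, the latter at 253 and 251 CPM in vehicle and EGCG of replicate 1 and 158 and 152 CPM in replicate 2. Irf7, the main regulator of interferon alpha genes, was 1.00% and 9.87% higher. Irf1, which responds to interferon gamma, read 73.1 and 85.3 CPM in replicate 1 and 72.9 and 75.1 CPM in replicate 2, the EGCG libraries above both vehicle libraries, with unadjusted p = 0.110 in the block fit. The 3 Schlafen genes and Parp14, Xaf1, Ifi35, Ifi44 and Ifi27l2a did not pass, with log2 fold changes between 0.01 and 0.11 with the block.

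The other genes of the interferon system were taken from lists by role. Of the 21 interferon ligand genes, none reached the 10 counts over 4 libraries needed for a test, and the highest count in any library was 1. Both type I receptor genes were expressed, Ifnar1 at 174 and 179 CPM in vehicle and EGCG of replicate 1 and 348 and 353 CPM in replicate 2. Of 16 tested receptor and signalling genes 1 fell (6.25%) and 0 rose in the block fit, against 1.09% and 2.12% of all genes. The one that fell was Socs3, an inhibitor of cytokine signalling, at 25.8 and 17.4 CPM in replicate 1 and 85.7 and 72.9 CPM in replicate 2 (log2 fold change -0.39, unadjusted p = 0.0087). Of 19 genes of nucleic acid sensing 1 rose, Rnaseh2b, a subunit of the RNase that removes ribonucleotides from DNA (unadjusted p = 0.0180), and 0 fell. This is 5.26% higher against 2.12% of all genes, and DESeq2 with the block did not call Rnaseh2b (unadjusted p = 0.141).

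Among 70 further interferon-induced genes, 7 rose (10%) and 1 fell (1.43%) in the block fit, against 2.12% and 1.09% of all genes, none passed without the block and none at an adjusted p under 0.1 in either fit. DESeq2 with the block called 3 higher (4.29%) and 1 lower (1.43%), against 0.666% and 0.442% of all genes. Cxcl10, a chemokine induced by interferon gamma, had the lowest p of those that rose. It read 6.40 and 10.3 CPM in vehicle and EGCG of replicate 1 and 10.6 and 16.1 CPM in replicate 2 (log2 fold change 0.64, unadjusted p = 0.0012). Both replicates showed the rise, and the EGCG level of replicate 1 was just below the vehicle level of replicate 2. Iigp1, an immunity-related GTPase, read 4.998 and 8.55 CPM in replicate 1 and 6.96 and 9.53 CPM in replicate 2 (unadjusted p = 0.0061), with both EGCG libraries above both vehicle libraries. The libraries lay apart in this way for 6 of the 70 genes, against 6.39% of all genes. Phf11b and Nt5c3 also rose in the edgeR fit (unadjusted p = 0.0078 and 0.0127) but were not called by DESeq2 with the block (unadjusted p = 0.0808 and 0.127). Gbp2b, next to Gbp2, rose at 1.55 and 2.996 CPM in replicate 1 and 23.1 and 29.4 CPM in replicate 2 (unadjusted p = 0.0152). The gene that fell was Ifitm1, at 1.19 and 0.375 CPM in replicate 1 and 13.8 and 8.94 CPM in replicate 2 (unadjusted p = 0.0127).

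The second comparison was between replicates, with treatment as a covariate, and here the interferon-induced genes differed widely. Of the 46 genes 32 were lower and 5 higher in replicate 2 at an adjusted p under 0.1 (edgeR's quasi-likelihood test), and 9 did not pass. These are 69.6% and 10.9% of the 46, against 25.7% and 27.7% of all genes. The median log2 difference of replicate 2 from replicate 1 was -0.32, against 0.01 over all genes. For 42 of the 46 genes this difference exceeded that between EGCG and vehicle. The same share over all genes was not taken, so this count is not read as particular to these genes. The replicate difference was beyond 1 on the log2 scale for 8 genes lower (17.4%) and 2 genes higher (4.35%) in replicate 2. Over all genes these shares were 12.7% and 6.51%. Each replicate holds 1 library of each treatment, so that the replicate difference is not a treatment difference, and its possible sources cannot be told apart.

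**Figure D4:**
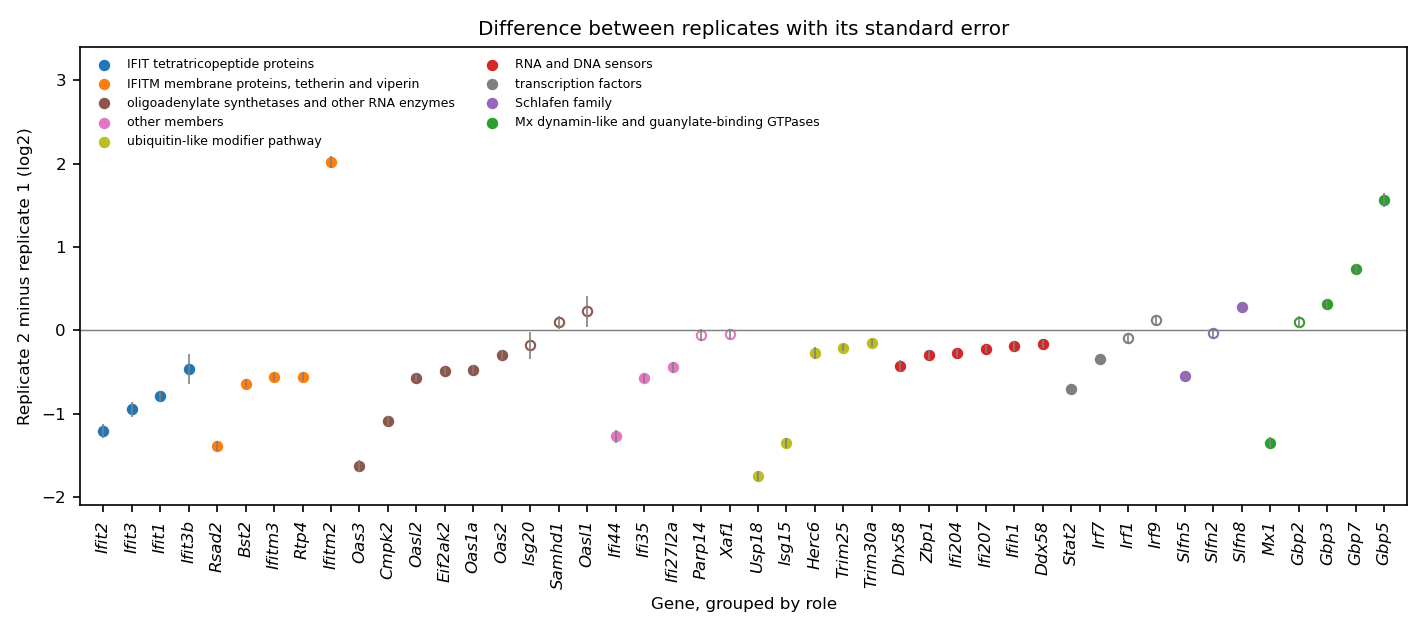
Log2 difference of replicate 2 from replicate 1 (vertical axis, bars are standard errors from edgeR) for the 46 tested genes grouped by role; filled points passed an adjusted p under 0.1. Usp18 is lowest at -1.74 and Ifitm2 highest at 2.02, all 4 IFIT genes, all 6 sensors and all 5 genes of the ubiquitin-like modifier pathway lie below 0, and Gbp3, Gbp5 and Gbp7 lie above.

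The lower genes were led by Usp18, at 74.2 and 83.7 CPM in replicate 1 against 21.9 and 25.2 CPM in replicate 2, 3.35-fold lower in replicate 2 (log2 difference -1.74 ± 0.06, adjusted p = 0.000134). Oas3 followed at 98.9 and 108 against 34.0 and 33.1 CPM (-1.62 ± 0.07), then Rsad2 at 116 and 143 against 46.6 and 52.6 CPM (-1.38 ± 0.06). Isg15 at 67.7 and 74.1 against 27.3 and 28.2 CPM (-1.35 ± 0.06) and Mx1 at 125 and 146 against 52.0 and 54.6 CPM (-1.35 ± 0.06) completed the 5 lowest. For each of these genes, chosen for the size of this difference, the replicates did not overlap. Both libraries of replicate 2 lay below both of replicate 1 for 34 of the 46 genes and for 5162 of all 13811. They lay above for 6 and 5409. The smallest fold among these 5 was 2.54, for Mx1.

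By role, all 4 IFIT genes, all 6 sensors and all 5 genes of the ISG15 and TRIM group were lower in replicate 2. Within roles the sizes differed. Ifit2 was 2.30-fold lower, Ifit3 1.93-fold, Ifit1 1.73-fold and Ifit3b 1.38-fold (adjusted p = 0.0926), and Ifit3b did not pass with total counts as the scaling or when EGCG replicate 1, vehicle replicate 2 or EGCG replicate 2 was left out. The sensors differed by less, from 1.35-fold for Dhx58 to 1.12-fold for Ddx58. Of the oligoadenylate synthetase group 6 of 9 were lower, with Oas3, Cmpk2 and Oasl2 at 3.08-, 2.13- and 1.49-fold, while Isg20, Oasl1 and Samhd1 did not pass. Among the transcription factors Stat2 was 1.62-fold and Irf7 1.27-fold lower, and Irf1 and Irf9 did not pass.

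The higher genes were Ifitm2, 3 guanylate-binding genes and Slfn8. Ifitm2 read 33.7 and 37.3 CPM in replicate 1 and 146 and 141 CPM in replicate 2, 4.05-fold higher in replicate 2 (log2 difference 2.02 ± 0.07). Its relative Ifitm3, in the same cluster, went the other way, at 183 and 193 against 120 and 135 CPM (-0.56 ± 0.05). Gbp5 was 2.96-fold higher in replicate 2, Gbp7 1.66-fold and Gbp3 1.25-fold, while Gbp2 did not pass at a log2 difference of 0.10 ± 0.07. Slfn8 was 1.22-fold higher while Slfn5 was 1.46-fold lower. Gbp3 did not pass with DESeq2 (log2 difference 0.30) or without the EGCG library of replicate 2 (0.20).

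The direction of the replicate difference was compared with the promoter motifs as a description. Of the 22 tested genes with an ISRE core 16 were lower and 5 higher in replicate 2, with a median log2 difference of -0.47. Of the 15 without it 8 were lower and 0 higher, with a median of -0.21. Over all genes 25.7% were lower and 27.7% higher, so that 5 of 22 lies near the share of all genes. All 5 genes that were higher held the ISRE core, as did Isg15, Oas3 and Rsad2 among the lowest. Of the 37 genes with a matched promoter, 22 held it. Genes on both sides of the replicate difference thus carried the same letters.

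Most receptor and signalling genes were higher in replicate 2. Of the 16 receptor and signalling genes 11 were higher (68.8%) and 2 lower (12.5%) in replicate 2, against 27.7% and 25.7% of all genes, with Ifngr1, the ligand-binding chain of the interferon gamma receptor, at 80.6 and 100 CPM in replicate 1 against 349 and 335 CPM in replicate 2 and Ifnar1 at 174 and 179 against 348 and 353 CPM. Of the 70 further interferon-induced genes 32 were lower (45.7%) and 16 higher (22.9%), and of the 19 sensing genes 5 were lower (26.3%) and 11 higher (57.9%). The shares of 22.9% and 26.3% lie near those of all genes, 27.7% and 25.7%.

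Markers of cell identity also differed between the replicates. The 10 microglial markers summed to 5834 and 6446 CPM in replicate 1 and 8914 and 8659 CPM in replicate 2, with 6 higher and 4 lower in replicate 2, and the border macrophage markers to 666 and 765 against 496 and 457 CPM, nearly all from Mrc1 and Pf4, with Lyve1 and Cd163 under 1 CPM in every library. The plasmacytoid dendritic cell list, a cell type known for interferon alpha release, rested on Tcf4 alone, with Siglech and Ly6d at or near 0. The neuronal list fell from 17.5 and 16.7 to 0.791 and 1.14 CPM through Snap25, the T and NK cell list from 5.97 and 5.49 to 0.191 and 0.0906 CPM through Klrb1c, and the endothelial and pericyte list rose from 2.50 and 0.905 to 16.8 and 13.7 CPM through Pecam1, while Cd3e, Cd3d, Nkg7 and Cldn5 were at or near 0 throughout. Astrocyte markers summed to 9.85 to 12.7 and oligodendrocyte lineage markers to 77.4 to 80.5 CPM in the 4 libraries. The part of these differences in the replicate result was not tested.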

How the data were processed

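RNA of 4 libraries of primary mouse microglia (2 vehicle, 2 EGCG) was measured by strand-specific polyA RNA sequencing. The authors deposited raw counts per gene, as whole reads without normalization, in 1 table per replicate. Per the labels and the study's methods, filtered reads were aligned with HISAT2 to GRCm38.p6. The counting program, its annotation and its treatment of reads matching several genes are not given in the sources used here. Both tables were merged by Ensembl identifier, without the loci that each had assembled on its own (697 and 329).

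Protein-coding genes whose counts reached 10 across the 4 libraries were tested with edgeR 4.0.16 in R 4.3.3 (TMM normalization, quasi-likelihood F test, Benjamini-Hochberg adjustment), with DESeq2 1.42.0 as an alternative. Calls used an unadjusted p under 0.05 and an adjusted p under 0.1, and log2 CPM values used a prior count of 2. The standard error was the log2 fold change divided by the square root of F. The main EGCG fit had treatment as its only term, as in the study's methods, and a second fit added the replicate number as a block. At the same thresholds the study reported more genes than DESeq2 gave here with treatment only (24 unadjusted and 1 adjusted). It reported slightly fewer than DESeq2 gave with the block (153 and 7). Replicate numbers come from the labels, and each number has its own count table. The deviations of same-numbered libraries from their treatment means correlated across the 13811 genes (Pearson r = 0.64), with 2 pairs only. The scripts were tested on simulated data. Near-identical copies were sought with BLAST among GENCODE M21 transcripts.

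The 47 genes and all lists were chosen with earlier results of these data known. Named genes are those with an unadjusted p under 0.05 in either EGCG fit, the 5 highest and 3 lowest per length in vehicle, the 5 largest changes in each direction for EGCG and for the replicates, Ifit3 and Ifit3b, and up to 5 passing genes per pathway list. Other genes are named to complete a role. The alternatives were other scalings, filters and gene classes, DESeq2, the block, within-replicate values, summing Ifit3 with Ifit3b, and leaving out each library.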

Additional observations from a re-analysis of the deposited data

How the results depend on the processing

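With 2 libraries per group, the standard error of the EGCG log2 fold change had a median over the 46 genes of 0.27 without the block and 0.06 with it, which sets the size of change that could be detected. None of the interferon-induced genes passed an adjusted p under 0.1 for EGCG under any alternative run. At an unadjusted p under 0.05, 6 passed with the replicate block and 3 with DESeq2 and the block, against 0 otherwise, and the block moved the count over all genes from 16 to 444 (DESeq2 with the block, 153). At an adjusted p under 0.1 the count over all genes was 1 with the block, 1 with DESeq2 and 7 with DESeq2 and the block, against 0. The unadjusted count of 16 was 3 with at least 10 counts required in every library, 6 with edgeR's filterByExpr, 35 with genes of all biotypes and 8 to 134 with 1 library left out (15 without vehicle replicate 1, 8 without EGCG replicate 1, 59 without vehicle replicate 2 and 134 without EGCG replicate 2). The median log2 EGCG difference of the 46 genes ran from -0.17 to 0.22 with 1 library left out. It was 0.19 without vehicle replicate 1 and 0.22 without EGCG replicate 2, but turned to -0.17 without EGCG replicate 1 and to -0.15 without vehicle replicate 2, since such a fit without the block sets the replicates against each other.

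The median replicate difference of -0.32 was -0.38 with upper-quartile factors, -0.24 with total counts, -0.25 with genes of all biotypes and -0.37 within the EGCG libraries. Total counts moved the median of all genes from 0.01 to 0.09 and the calls among the 46 genes from 5 higher and 32 lower to 8 and 28. No called replicate difference of the 46 genes reversed under the alternatives run. The median EGCG difference turned negative without EGCG replicate 1 or without vehicle replicate 2. Those fits set the replicates against each other, so they cannot gauge how stable the EGCG difference is. Within replicates 1 and 2 its median was 0.11 and 0.03.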
